A study of Arabidopsis thaliana with 6 samples.

Results

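Suberin synthesis and export genes were followed in roots of Arabidopsis thaliana seedlings treated with auxin. The set holds 10 loci, picked out by their locus tags: GPAT5, FAR1, FAR4, FAR5, ASFT, CYP86A1, CYP86B1, KCS2, ABCG6 and ABCG20. All 10 have a row among the 20423 genes of the deposited table. Seedlings were wild type Col-0, 3 days after germination, and both groups spent 6 h in liquid 1/2 MS medium. For the IAA group this medium contained the auxin indole-3-acetic acid (IAA) at 1 µM, and for the Control group it contained none. Whole roots were collected, so the RNA came from all root cell types together, and the labels name 3 libraries per group. Each replicate held about 100 roots.

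Suberin is a polyester of fatty acids, glycerol and ferulic acid that seals the walls of the endodermis, the cell layer around the vascular cylinder. It is laid down after the Casparian strip, a lignin ring that closes the space between endodermal cells. Fatty acids are first lengthened, then oxidised at their free end or reduced to alcohols, then joined to glycerol or ferulic acid, and then exported through ABCG transporters of the plasma membrane. The suberin layer opens where a lateral root grows through the endodermis, and auxin is the main signal that starts lateral roots.

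The deposited values are 1 mean normalized read count per gene and group, without values per library, so differences between the groups have no replicate check and no p-value is given. In both groups the lowest means fell on sums of 2 step sizes, 0.5892 and 0.6343 in Control and 0.3665 and 0.4256 after IAA. Each step was taken as what 1 read adds to the mean. All 6712 Control means and all 6749 IAA means between 0 and 7 lay on such sums within 0.0075. The labels name 3 libraries, while only 2 steps were found in each group. Read as 2 libraries, the steps give size factors, the divisors of the read counts, of 0.849 and 0.788 in Control. After IAA they give 1.36 and 1.17. Whether a further library shares its step with another was not tested. The steps give the number of reads behind each mean within a narrow range, in total 1449161 to 1560176 reads in Control and 2052854 to 2383883 after IAA. From these read numbers each ratio of means was given a 95% Clopper-Pearson interval, which covers counting error only and not the spread between libraries. The auxin-induced genes GH3.3, IAA19 and LBD29 were 52.3-fold, 62.8-fold and 68.5-fold higher in the IAA group, which checks the labels of the groups.

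Of the 10 suberin genes, 9 had an IAA mean at least 2-fold above the Control mean, and 0 were at least 2-fold lower. CYP86A1 was the gene with nearly the same mean in both groups. These counts were made with 1 added to each mean, and all 10 genes passed the minimum of 5 for the mean over both groups. Among the 14337 genes that passed it, 13.3% were at least 2-fold higher and 11.5% at least 2-fold lower. Within the range of the suberin genes, from 17.8 to 286 for the mean over both groups, these shares were 12.4% and 9.77% of 7748 genes. The median of log2((IAA + 1)/(Control + 1)) was 1.56 over the 10 suberin genes and 0.00 over all genes past the minimum. The set was proposed with results of these data in view, so the count describes these genes only.

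**Figure D1:**
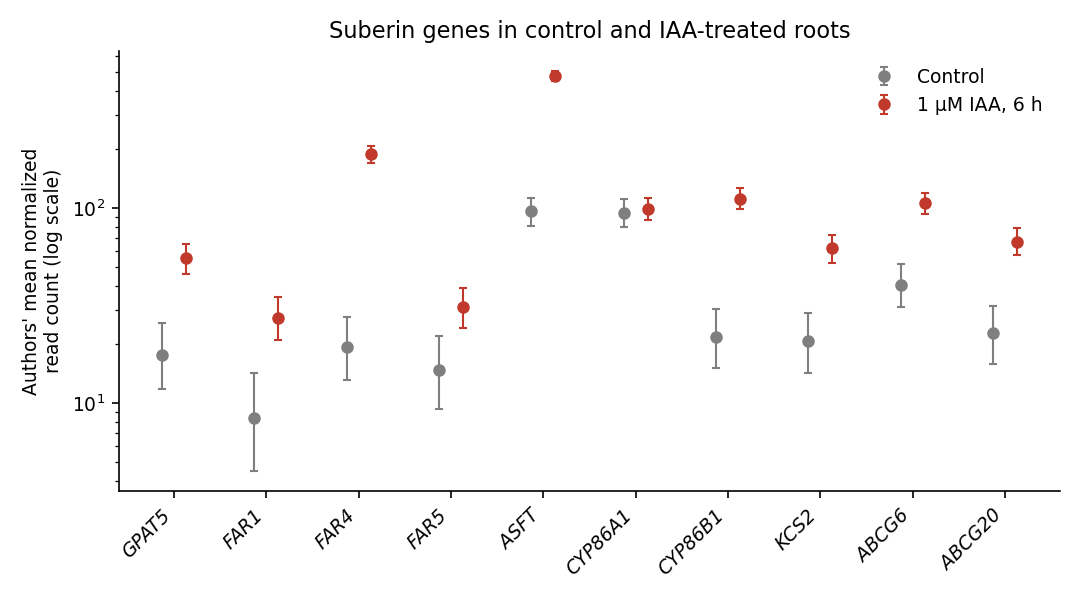
Authors' mean normalized read count (log scale) of the 10 suberin genes in Control (grey) and IAA-treated roots (red). Points are the deposited group means and bars are 95% Poisson intervals from the read numbers, which cover counting error only. The CYP86A1 points lie side by side at 94.7 and 98.7, while the other 9 genes are higher after IAA.

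Lengthening of the fatty acids was represented by KCS2. KCS2 (AT1G04220, chromosome 1, 1119699 to 1122786 in TAIR10.1, minus strand) encodes a 3-ketoacyl-CoA synthase, the condensing enzyme of very long chain fatty acid elongation. Its mean was 20.7 in Control, from 33 to 35 reads, and 62.2 after IAA, from 147 to 169 reads. The ratio of 3.00 (counting interval 2.05 to 4.52) stood near the middle of the set. A long non-coding RNA on the other strand, AT1G04247, covers 61.5% of the exon bases of KCS2 in the RefSeq annotation. The protein coding gene AT1G04210, also on the other strand, shares 2.01% of them and is listed at 83.1 in Control and 105.6 after IAA. Whether strand was used in counting is not given in the sources used here. AT1G04247 has no row of its own, so over the bases it shares, KCS2 reads and reads from AT1G04247 cannot be told apart. How reads over the bases shared with AT1G04210 were assigned is not given either.

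The cytochrome P450 genes of oxidation had unlike ratios within a single step of the pathway. CYP86A1 (AT5G58860, chromosome 5, 23765791 to 23768111, minus strand) encodes the hydroxylase of long chain fatty acids and stood second in the set in level per kb of exon in Control. Its mean was 94.7 in Control and 98.7 after IAA, a ratio of 1.04 with a counting interval of 0.844 to 1.29. CYP86B1 (AT5G23190, chromosome 5, 7803141 to 7805968, minus strand) encodes the hydroxylase of very long chain fatty acids. Its mean was 21.8 in Control, from 35 to 37 reads, and 111.7 after IAA, from 263 to 304 reads. The ratio was 5.12 (counting interval 3.58 to 7.56), and this interval did not meet that of CYP86A1. Coding sequences of these genes are 59.6% identical over 1513 aligned bases, and none of their 60-base exon stretches, the length of the reads, occurs elsewhere in the genome.

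FAR1, FAR4 and FAR5 encode fatty acyl-CoA reductases, which make the primary alcohols found in suberin, with FAR5 acting on the shortest and FAR1 on the longest chains. FAR4 (AT3G44540, chromosome 3, 16123426 to 16128030, plus strand) had the largest ratio of the set. Its mean was 19.4 in Control, from 31 to 32 reads, and 188.3 after IAA, from 443 to 513 reads, so that it was 9.73-fold higher (counting interval 6.76 to 14.5). With 1 added to each mean, 0.893% of the 14337 genes past the minimum had a ratio at least as high. FAR5 (AT3G44550, chromosome 3, 16137576 to 16142270, plus strand) lies 9545 bases downstream of FAR4 on the same strand. Its mean was 14.7 in Control and 30.9 after IAA, a ratio of 2.11 (counting interval 1.30 to 3.53). FAR4 and FAR5 thus differed in ratio by more than their counting error, although they are neighbours. FAR8, a further gene of the family 8852 bases beyond FAR5, is listed at 0 in Control and at 0.79 after IAA, from 2 reads.

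FAR1 (AT5G22500, chromosome 5, 7470328 to 7474133, plus strand) had the lowest level of the set per kb of exon in Control. Its mean was 8.38 in Control, from 14 reads, and 27.2 after IAA, from 64 to 74 reads. The ratio was 3.25 (counting interval 1.77 to 6.43). Only 1 pair of whole read numbers gives the Control mean of FAR1, 11 reads at the smaller step and 3 at the larger. If each mean rests on 2 libraries, these are normalized levels of 13.0 and 3.81, both below the IAA mean. The same reading gives 12 and 12 reads for FAR5 in Control, or levels of 14.1 and 15.2. The numbers of reads are small, and whether these libraries differed beyond counting error was not tested. For the other means of the set several pairs fit, and no value per library can be given. FAR4 and FAR5 coding sequences are 73.1% identical, and FAR5 and FAR8 are 87.5% identical. Of the 2381 60-base exon stretches of FAR5, 6 occur elsewhere in the genome, and 0 of those of FAR4 and FAR1. Genes on the other strand overlap 6.92% of the exon bases of FAR1 (AT5G22505) and 6.74% of those of FAR4 (AT3G06845, a long non-coding RNA), and neither has a row in the table.

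Joining of the monomers was represented by GPAT5 and ASFT. GPAT5 (AT3G11430, chromosome 3, 3595694 to 3597952, plus strand) encodes the acyltransferase that couples fatty acids to glycerol. Its mean was 17.7 in Control, from 28 to 30 reads, and 55.2 after IAA, from 130 to 150 reads, a ratio of 3.12 (counting interval 2.06 to 4.87). ASFT (AT5G41040, named RWP1 in RefSeq, chromosome 5, 16431304 to 16433305, plus strand) encodes the transferase that adds feruloyl groups to hydroxy fatty acids and alcohols. It had the highest level of the set per kb of exon in both groups. Its mean was 96.0 in Control, from 152 to 162 reads, and 476.5 after IAA, from 1120 to 1300 reads. The ratio was 4.96, with a counting interval of 4.19 to 5.92. AT5G41050 on the other strand overlaps 3.46% of the exon bases of ASFT and is listed at 2.99 in Control and at 0 after IAA.

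Export was represented by the ABC transporter genes ABCG6 and ABCG20, needed for suberin barriers in roots and seed coats. ABCG6 (AT5G13580, chromosome 5, 4370692 to 4373201, plus strand) had a mean of 40.3 in Control and 106.0 after IAA. Its ratio was 2.63 (counting interval 1.99 to 3.52). ABCG20 (AT3G53510, chromosome 3, 19837148 to 19839983, minus strand) had a mean of 22.8 in Control and 67.3 after IAA. Its ratio was 2.96 (counting interval 2.05 to 4.38), so that the transporters did not differ beyond counting error. Both genes have a single exon block.

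**Figure D2:**
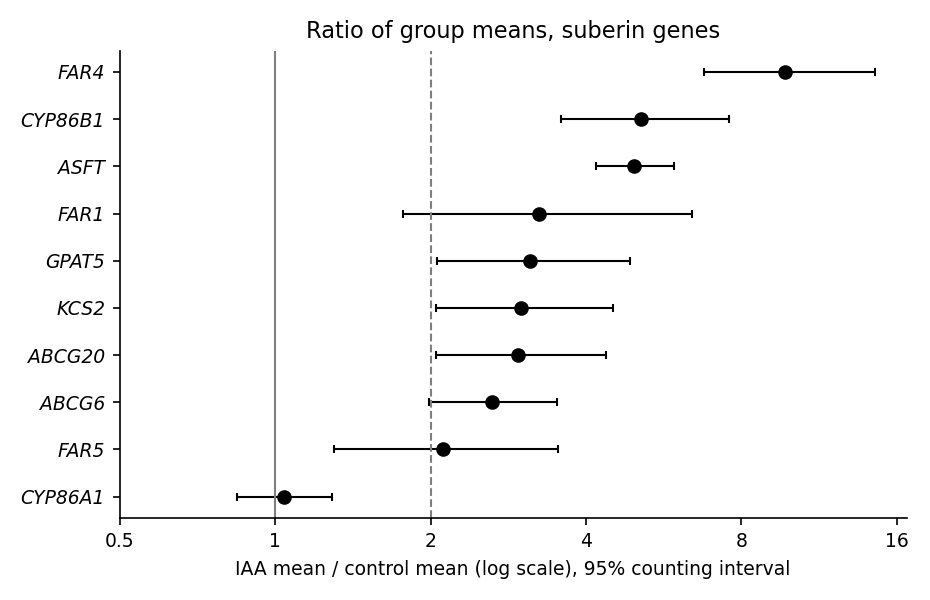
Ratio of the IAA mean to the Control mean (log scale) of the 10 suberin genes, in order of the ratio, with bars for the 95% counting interval. The solid line marks 1 and the dashed line marks 2. FAR4 stands at 9.73 and CYP86A1 at 1.04, and the intervals of ABCG6, ABCG20, KCS2, GPAT5, FAR1 and FAR5 all overlap.

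The counting intervals separated few of the ratios. The intervals of GPAT5, FAR1, FAR5, KCS2, ABCG6 and ABCG20, with ratios from 2.11 to 3.25, all overlapped. ASFT and CYP86B1, at 4.96 and 5.12, could not be told from each other. The intervals of ASFT and CYP86B1 also met those of GPAT5, FAR1, KCS2 and ABCG20, and lay above those of ABCG6 and FAR5. The interval of FAR4 overlapped that of CYP86B1 and lay above that of ASFT. The interval of CYP86A1 ended at 1.29, just under that of FAR5, which began at 1.30.

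Levels were compared between genes after division by exon length, which joins all annotated transcripts. FAR4 has 2936 such bases against 1482 coding bases, and ASFT has 1823 against 1374. The places of the genes depend on this choice of length, which the counting intervals do not cover. In Control, ASFT with a mean of 52.6 per kb of exon and CYP86A1 with 50.8 per kb stood above the other genes and did not differ beyond counting error. ABCG6 followed with 16.1 per kb, and the other 7 genes lay between 3.69 and 10.1 per kb with overlapping neighbours. After IAA, ASFT stood alone at 261 per kb (counting interval 246 to 277). FAR4 went from place 8 of 10 to place 2, at 64.1 per kb. Its interval after IAA, 58.3 to 70.4, still met that of CYP86A1 at 52.9 per kb, 46.3 to 60.2. CYP86B1 at 48.0 per kb overlapped with CYP86A1 and with ABCG6 at 42.2 per kb. KCS2, GPAT5 and ABCG20, at 30.4, 27.6 and 23.7 per kb, lay below ABCG6 beyond counting error and overlapped among themselves. FAR1 at 12.0 and FAR5 at 10.4 per kb were lowest and overlapped with each other. Of the summed level per kb of the 3 FAR genes, FAR4 made up 43.3% in Control and 74.1% after IAA.

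**Figure D3:**
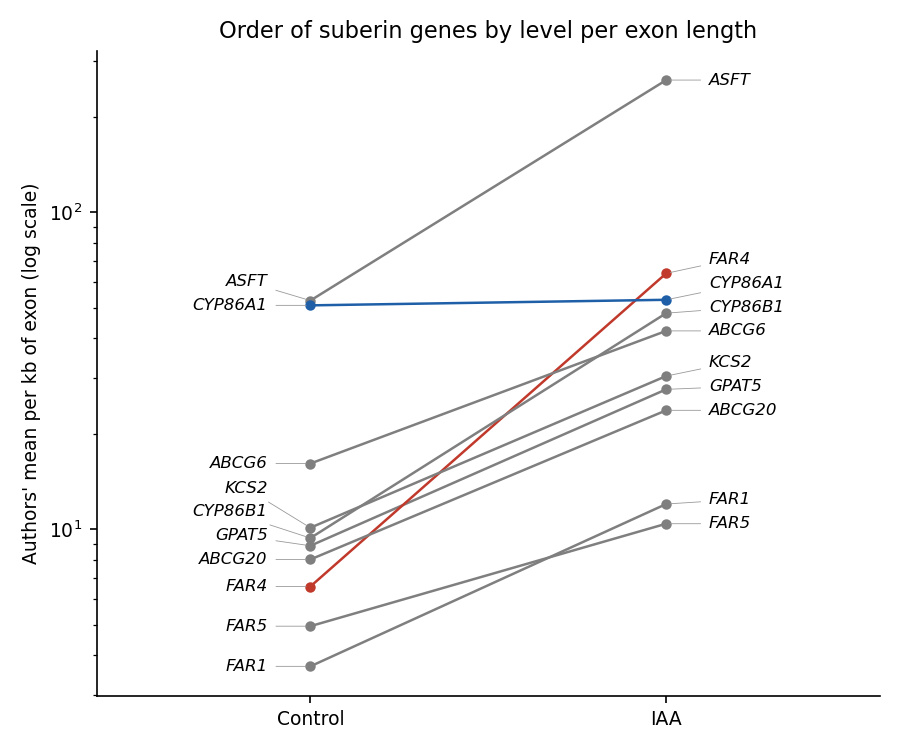
Authors' mean per kb of exon (log scale) of the 10 suberin genes in Control and after IAA, with 1 line per gene. FAR4 (red) goes from 6.59 to 64.1 per kb and passes CYP86A1 (blue), which stays at 50.8 and 52.9 per kb.

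Sequences before the annotated gene starts were compared because paralogs of the set had unlike ratios. Each window of 300 bases, from 250 before to 50 after the start, was searched on both strands for TGTCTC and TGTCGG, bound by auxin response factors, for ACCNAAC, of a kind bound by MYB factors, for ACGTGG, of the abscisic acid response element, and for TTGACC, bound by WRKY factors. TGTCTC was found in 1 of 10 windows, that of ABCG20, against 14.2% of all 27443 windows of protein coding genes. TGTCGG was found in 0 of 10 (5.12% of all windows) and ACGTGG in 0 of 10 (9.85%). ACCNAAC was found in ASFT and CYP86B1 (17.2% of all windows) and TTGACC in FAR4 and CYP86B1 (14.2%). The 250 bases before the start, read from TAIR10.1 on the coding strand of each gene, are given for the gene of highest level and for the pairs FAR4 and FAR5, and CYP86B1 and CYP86A1. Capitals mark matches to these motifs. FAR4 is at chr3:16123176-16123425 (plus), FAR5 at chr3:16137326-16137575 (plus), CYP86B1 at chr5:7805969-7806218 (minus), CYP86A1 at chr5:23768112-23768361 (minus) and ASFT at chr5:16431054-16431303 (plus).
FAR4: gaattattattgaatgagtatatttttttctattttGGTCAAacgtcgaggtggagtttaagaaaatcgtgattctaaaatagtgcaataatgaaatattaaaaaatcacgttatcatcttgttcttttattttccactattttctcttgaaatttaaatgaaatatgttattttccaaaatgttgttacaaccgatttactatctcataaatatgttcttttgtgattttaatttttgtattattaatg
FAR5: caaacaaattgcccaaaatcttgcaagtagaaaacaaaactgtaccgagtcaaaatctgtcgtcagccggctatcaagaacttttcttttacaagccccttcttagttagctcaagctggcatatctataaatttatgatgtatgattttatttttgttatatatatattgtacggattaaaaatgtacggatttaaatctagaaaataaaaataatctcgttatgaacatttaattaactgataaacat
CYP86B1: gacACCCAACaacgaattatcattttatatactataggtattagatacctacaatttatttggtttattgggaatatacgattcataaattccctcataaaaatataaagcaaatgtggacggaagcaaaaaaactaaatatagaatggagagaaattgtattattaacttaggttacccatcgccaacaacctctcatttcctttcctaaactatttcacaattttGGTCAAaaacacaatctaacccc
CYP86A1: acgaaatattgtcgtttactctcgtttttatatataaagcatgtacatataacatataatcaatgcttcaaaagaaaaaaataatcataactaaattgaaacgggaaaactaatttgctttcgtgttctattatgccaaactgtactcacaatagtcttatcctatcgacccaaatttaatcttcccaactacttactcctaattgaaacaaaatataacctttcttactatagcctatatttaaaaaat
ASFT: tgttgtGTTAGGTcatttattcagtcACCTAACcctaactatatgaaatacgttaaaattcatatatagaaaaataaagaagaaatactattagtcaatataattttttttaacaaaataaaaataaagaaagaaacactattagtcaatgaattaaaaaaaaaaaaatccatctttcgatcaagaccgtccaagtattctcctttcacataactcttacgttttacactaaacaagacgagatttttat

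ASFT holds ACCNAAC as ACCTAAC at position -224 and in reverse as GTTAGGT at -244, counted from the gene start, while CYP86B1 has 1 match as ACCCAAC at -247. FAR4 has its TTGACC match in reverse as GGTCAA at -214, and CYP86B1 has GGTCAA at -23. FAR5 and CYP86A1, the genes of lower ratio in each pair, hold no match to these 5 motifs in these bases. GPAT5, FAR1, KCS2 and ABCG6, with ratios of 3.12, 3.25, 3.00 and 2.63, hold no match in their windows either. None of the matches overlap. A match is a description of sequence only, and a window without one says nothing of the factor.

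Another list held 10 further genes of the suberin pathway. All 10 had an IAA mean above the Control mean, 6 of them by at least 2-fold. Their median log2 ratio was 1.06. Of all 14337 genes past the minimum mean of 5, 7173 were above the Control mean and 13.3% at least 2-fold higher. ABCG16 and GPAT7, both among the 6, passed that minimum only through their IAA level. The largest ratios belonged to paralogs of members that were close to silent in Control. ABCG16, a transporter related to ABCG6 (72.5% identical coding bases), had a mean of 1.27 in Control, from 2 reads, and 44.0 after IAA, from 104 to 120 reads. Its ratio was 34.7 with a counting interval of 9.36 to 290. GPAT7, a paralog of GPAT5 (78.2% identical), had a mean of 1.90 from 3 reads in Control and 32.6 from 77 to 88 reads after IAA. Its ratio was 17.1 (counting interval 5.65 to 84.9).

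The elongation enzymes of the same list were moderately higher. KCS20, the paralog of KCS2, had a mean of 18.5 in Control and 39.8 after IAA (ratio 2.15, counting interval 1.40 to 3.38). KCR1, the ketoacyl reductase of the elongase, went from 75.1 to 157.2 (ratio 2.09, 1.70 to 2.60), and CER10, its enoyl reductase, from 26.0 to 62.5 (ratio 2.41, 1.69 to 3.49). The dehydratase gene PAS2 had 17.2 and 22.2, with an interval of the ratio that held 1. LACS2, which activates fatty acids with coenzyme A, had a ratio of 2.41 (1.52 to 3.97). FACT, which makes caffeoyl esters of alcohols, had a ratio of 1.90 (1.16 to 3.20). The transporter genes ABCG2 and ABCG1 had ratios of 1.81 (1.27 to 2.63) and 1.58 (0.929 to 2.76).

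Transcription factors known for suberin differed in direction. Of 11 on the list, with no minimum mean, 5 were at least 2-fold higher and 0 at least 2-fold lower, and their median log2 ratio was 0.35. Of all 20423 genes with no minimum, 14.9% were at least 2-fold higher and 13.7% lower. MYB39 and MYB9 passed the minimum mean of 5 only through their IAA level. Past that minimum there were 7 factors, with 4 at least 2-fold higher. MYB93, a regulator expressed in the endodermis over lateral root primordia, had a mean of 9.20 in Control and 45.7 after IAA (ratio 4.97, counting interval 2.88 to 9.18). MYB39, also called SUBERMAN, had 1.27 from 2 reads in Control and 12.4 from 30 to 33 reads after IAA (ratio 9.75, 2.47 to 84.3). ANAC058 had 7.84 and 29.4 (ratio 3.75, 2.02 to 7.61) and MYB9 had 4.40 and 12.9 (ratio 2.93, 1.26 to 7.91). MYB107 had 1.18 and 5.06, with an interval that held 1. MYB92 was the factor with the lowest ratio, at 23.9 in Control and 13.3 after IAA, 1.80-fold lower (counting interval 1.09 to 2.99). MYB68 and ANAC046 had ratios of 0.727 and 0.885 with intervals that held 1. MYB41, MYB53 and MYB67 had at most 5 reads in either group, too few to show a difference.

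**Figure D4:**
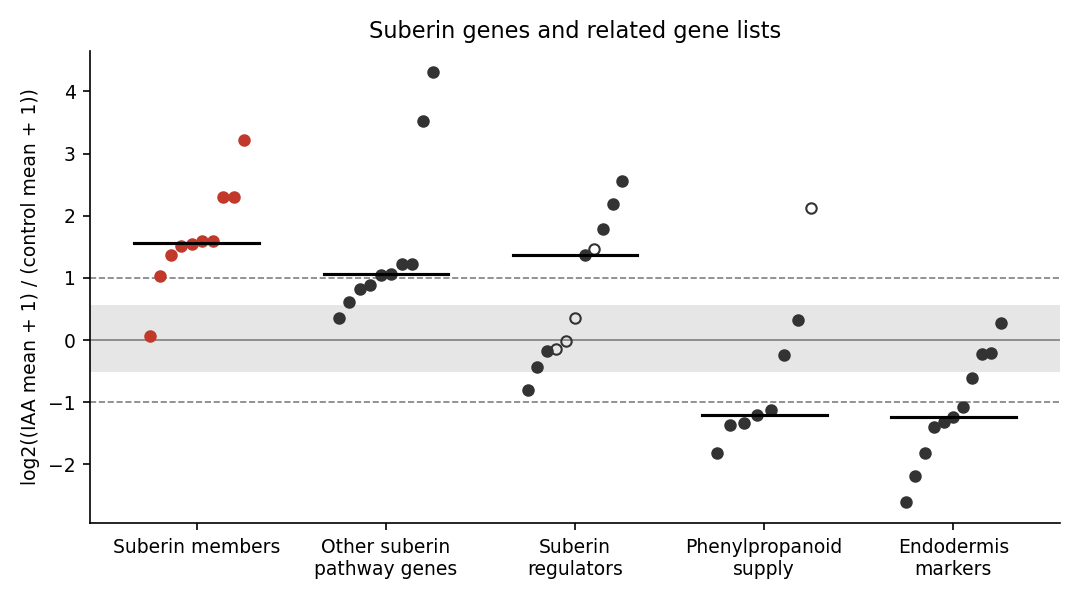
log2((IAA mean + 1)/(Control mean + 1)) of each gene in the suberin set (red) and 4 related lists. Open points are genes with a mean over both groups under 5, black bars are medians without those genes, the grey band holds the middle 50% of all genes past the minimum, and dashed lines mark 2-fold. Suberin genes lie above the band except CYP86A1, while most phenylpropanoid and endodermis genes lie below it.

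Genes that supply the aromatic part of suberin and lignin were mostly lower after IAA. Of 8 phenylpropanoid genes, 7 passed the minimum mean of 5, and 5 were at least 2-fold lower, against 11.5% of all genes past it. PAL1, a phenylalanine ammonia-lyase at the entry to the pathway, had a mean of 546.9 in Control and 154.45 after IAA, 3.54-fold lower (counting interval 3.13 to 4.01). PAL2, C4H, 4CL1 and 4CL2 were 2.59-fold, 2.19-fold, 2.34-fold and 2.63-fold lower. PAL4 had 35.5 and 44.5, with an interval of the ratio that held 1, and CCoAOMT1 had 239.0 and 202.0. PAL3 is listed at 0 in Control and at 3.36 after IAA. The feruloyl transferase gene ASFT was thus higher while PAL1, PAL2, C4H, 4CL1 and 4CL2 were lower in the same libraries.

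All 11 marker genes of the endodermis were above 0 in both groups. At least 2-fold lower after IAA were 7 of them, with 0 higher by as much. Of all genes past the minimum mean of 5, 11.5% were lower and 13.3% higher by as much. The summed level of the 11 markers was 627.9 in Control and 307.6 after IAA, 2.04-fold lower. That of the 10 suberin genes was 356.4 and 1224, or 3.43-fold higher. The 7 genes encode proteins that build the Casparian strip. Among them, CASP1, CASP2, CASP4 and CASP5, which mark out the membrane domain of the strip, were 4.86-fold, 2.25-fold, 8.52-fold and 2.51-fold lower. CASP1, for example, had a mean of 59.8 in Control and 12.3 after IAA. CASP4 passed the minimum only through its Control level, at 17.6 in Control and 2.07 after IAA. The IAA mean of CASP4 came from 5 reads, and the counting interval of its 8.52-fold was 3.25 to 28.2. ESB1, a dirigent protein of the strip, had 215.4 and 86.05 (2.50-fold lower, counting interval 2.10 to 2.99), and the peroxidase gene PER64 had 89.5 and 33.2 (2.69-fold lower, 2.03 to 3.60). SCR, which specifies the endodermis, had 31.0 and 37.6, and MYB36, which switches on the strip genes, had 20.1 and 17.0, both with intervals of the ratio that held 1. The receptor gene SGN3 (GSO1 in RefSeq) was 1.54-fold lower (1.19 to 1.99), and the kinase gene AT1G61590 had 51.2 and 44.6. In whole roots, fewer cells of a type and less RNA per cell cannot be told apart.

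Markers of other tissues also differed between the groups. Of all genes past the minimum mean of 5, 11.5% were at least 2-fold lower and 13.3% higher. All 5 root hair markers were at least 2-fold lower, with a summed level of 218.8 in Control and 31.6 after IAA. Of these, COBL9 and EXPA18 passed the minimum only through their Control level. COBL9 had 20.85 in Control and 0.43 after IAA, from 1 read, and EXPA18 had 21.44 and 1.89, from 5 reads. Of 8 pericycle and stele markers, 7 passed the minimum. At least 2-fold lower were 3 and higher 0, and the sum of the 8 was 726.8 and 191.7. Most of this difference came from the transporter genes PHO1 (190.1 and 33.3) and NPF7.3 (287.5 and 21.5), chosen here after their values were seen. Without them the sum was 249.3 and 136.9. SUC2 and XCP2 were 2.02-fold and 1.95-fold lower (counting intervals 1.59 to 2.58 and 1.48 to 2.57), and the intervals of SHR, APL and XCP1 held 1. VND7 of the xylem is listed at 0 in Control. Root cap markers summed to 3.72 and 18.65, and most of this difference came from SMB (2.45, from 4 reads, and 14.75). BRN1, at 0 in Control, and BRN2 were under the minimum. The BRN2 mean was slightly lower after IAA, from 2 reads in Control and 3 after IAA. Shoot markers summed to 52.6 and 6.52. Of the seed markers, whose tissue also holds suberin, only SESA4 has a row, at 1.27 and 0.43. The part of these shifts in the suberin values was not tested.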

How the data were processed

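Total RNA of whole roots was depleted of ribosomal RNA and sequenced on a SOLiD instrument with 60-base reads. The authors mapped reads to TAIR10 with SHRiMP, counted uniquely mapped reads with htseq-count and compared groups with DESeq. The deposited signal values are mean read counts per group after division by size factors, as given by the authors, with 0 values per library. The authors' own fold, log2 fold and p-value columns are in the same table and were not used. No count model could be fitted to group means, and no p-value was computed. The number of counted reads per library is not in the table.

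Genes were compared by log2((IAA + 1)/(Control + 1)), with a minimum of 5 for the mean over both groups and a threshold of 2-fold. Read numbers came from the steps of the low means, and intervals are 95% exact Clopper-Pearson (ratios) or Poisson (means) intervals on the fewest reads that a mean allows. Such intervals cover counting error only. Reads can be PCR copies and are not independent molecules. Gene models, lengths and windows came from the RefSeq annotation of TAIR10.1, whose locus tags matched all 10 genes. Exon length joins all annotated transcripts. Coding identity was taken from global alignments of the longest coding isoforms. The members and lists were chosen with earlier results of these data known. All members were named, and of the other lists any gene could be named. The values of 1 endodermis marker are not reported here. The shares within the range of the suberin genes were added after the values were seen. Tables were handled with pandas 2.3.3 and numpy 2.4.6 under Python 3.11.15. Intervals came from scipy 1.17.1, alignments from Biopython 1.88 and plots from matplotlib 3.10.9.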

Additional observations from a re-analysis of the deposited data

How the results depend on the processing

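The count of 9 suberin genes at least 2-fold higher stayed at 9 with no pseudocount, with no minimum mean or a minimum of 10, with both groups scaled to the same sum, with ratios centred on the median and with a threshold of 1.5-fold. It was 8 with 5 added to each mean, where FAR5 dropped out, and 5 with a threshold of 3-fold. The count of regulators at least 2-fold higher was 4 with a minimum mean of 5 and 2 with a minimum of 10, and their median log2 ratio moved from 1.37 to 0.35 with no minimum and to -0.17 with a minimum of 10. With no minimum, 1 phenylpropanoid gene, PAL3, counted as 2-fold higher. Over all genes, 1902 were at least 2-fold higher and 1652 lower. These counts became 3035 and 2796 with no minimum, 3473 and 3171 at 1.5-fold, and 838 and 770 at 3-fold. Scaling to the same sum moved all ratios by 0.07 on the log2 scale. Apart from that median, no result computed under these settings changed direction. No paired analysis was possible because the table holds no values per library, and for the same reason no replicate could be left out. Depth limits the genes with few reads, such as MYB41, MYB53 and MYB67.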

Other observations

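Genes of cutin, the related polyester of shoot surfaces and of young root tips, were also listed. Of 11 genes listed, 9 have a row, and with no minimum mean 3 of these were at least 2-fold higher and 0 at least 2-fold lower, against 14.9% and 13.7% of all genes. Past the minimum mean of 5, which CYP86A4 passed only through its IAA level, 2 of 7 were higher. The third was DCR (PEL3 in RefSeq), listed at 0 in Control and at 3.23 after IAA, from 8 reads. CYP86A8, a fatty acid hydroxylase related to CYP86A1, had a mean of 12.2 in Control and 74.6 after IAA (ratio 6.12, counting interval 3.80 to 10.4). CYP86A4 had 2.40 from 4 reads and 17.2 from 41 to 46 reads (ratio 7.17, 2.59 to 27.6). Outside the cutin list, AT5G08250, annotated as a cytochrome P450, had 1.18 from 2 reads and 16.25 from 39 to 44 reads (ratio 13.8, 3.56 to 118). The acyltransferase gene GPAT4 had 47.6 and 89.2 (ratio 1.88, 1.43 to 2.48), and its relative GPAT8 had 5.94 and 4.50, with an interval that held 1. FAR3, the alcohol-forming reductase of shoot wax, was under the minimum mean of 5. It was listed at 3.58 in Control, from 6 reads, and at 0 after IAA, in the direction opposite to FAR1, FAR4 and FAR5.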
